A study of Danio rerio with 2 samples.

Results

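Pigment cell growth factor signalling was described here by 7 genes, the receptors kita, ltk, csf1ra and csf1rb and the ligands kitlga, csf1a and csf1b, of 22077 genes in the filtered UMI table. They were chosen by name, and all 7 were in the table. The 2 libraries came from 72 hpf zebrafish embryos of the strain Tg(crestin:mCherry;mitfa:GFP), in which the mitfa promoter drives GFP and the crestin promoter mCherry. In both, embryos had been kept from 24 hpf in the drug MoTP, which ablates embryonic melanocytes, until its washout at 64 hpf, and trunk cells positive for GFP, mCherry or both were sorted after 8 h of melanocyte regeneration. The embryos of one library received the vehicle DMSO and those of the other the ALDH2 inhibitor CVT-10216, each beside MoTP. There was thus 1 library, from pooled embryos, per condition, and neither library was free of MoTP.

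In zebrafish, Kita is the receptor tyrosine kinase that melanophores need to migrate and survive, and Kitlga is its ligand. Ltk is the receptor that iridophores, the silvery pigment cells, need to form, and its ligands are the small Alkal proteins. Csf1ra is needed by xanthophores, the yellow pigment cells, and by macrophages, while its paralog Csf1rb is known from blood and macrophage lineages. Csf1a, Csf1b and Il34 are the ligands of these Csf1 receptors.

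Cells were grouped into 9 classes by transcripts that are not among the 7 genes. The gate genes were dct, a melanin synthesis enzyme, gch2, an enzyme of pteridine synthesis in xanthophores, pnp4a, a purine enzyme of iridophores, phox2bb, a transcription factor of enteric and autonomic neurons, mpeg1.1, a macrophage gene, epcam, an epithelial adhesion gene, and and2, an actinodin of the larval fin fold. The pnp4a cells were divided by fhl2b, a LIM domain gene of iridophores, into those with at least 2 of its UMIs and those with none. The 23 DMSO and 32 CVT-10216 pnp4a cells with exactly 1 were kept apart from the 9 classes. Cells that passed no gate but held mitfa and tfec formed a class of their own. The level of a gene in a class is the sum of its UMIs there for every 1000000 UMIs of the class (CPM), with a 95% exact Poisson interval. All intervals cover counting error only. With no replicate of either condition, no test was made, and the treatment and the embryo pool of a library cannot be told apart.

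The filtered libraries held 4488 DMSO and 6795 CVT-10216 cells, with medians of 8581 and 9487 UMIs, and shared 4 cell barcodes. The classes held between 20 cells (mitfa with tfec, DMSO) and 1734 cells (gch2, CVT-10216). The gch2 cells made up 16.6% of the DMSO and 25.5% of the CVT-10216 library, the pnp4a cells without fhl2b 10.8% and 22.7%, and the phox2bb cells 31.9% and 15.0%. All 10 melanophore markers were more than 2-fold higher in dct cells than in other cells of the same library (gate genes included), as were 7 of 8 xanthophore markers in gch2 cells, all 10 iridophore markers in pnp4a cells with fhl2b and 11 of 12 macrophage markers in mpeg1.1 cells. In the and2 cells, 9 of 9 fin fold mesenchyme markers and 8 of 9 epithelial markers passed the same limit, so they are named by their gate alone. Another 503 cells met more than 1 gate at similar strength and were set apart as double gated, of which 273 had dct and gch2 as their highest gates.

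Kita transcripts were found mainly in cells with melanin genes, but not only there. In dct cells kita stood at 51.9 CPM (95% interval 38.7 to 68.3, 51 UMIs) in DMSO and at 69.1 CPM (50.2 to 92.8, 44 UMIs) in CVT-10216. The mitfa with tfec cells had 44.3 CPM (17.8 to 91.4) and 35.3 CPM (16.1 to 66.9) from only 7 and 9 UMIs. In these cells 9 melanophore markers other than dct summed to 729 and 674 CPM, against 23265 and 22734 CPM in dct cells. The classes were not separated from each other in kita. Its level in dct cells was 1.17-fold that of mitfa with tfec cells in DMSO (interval 0.529 to 3.06) and 1.96-fold in CVT-10216 (0.945 to 4.57). The gch2 cells held 4.64 CPM in DMSO and 2.81 CPM in CVT-10216, so that kita was 11.2-fold (6.62 to 19.6) and 24.6-fold (15.3 to 39.8) higher in dct cells. No kita UMI was found in pnp4a cells with fhl2b of either library, where 3 UMIs would have been 1.32 and 1.17 CPM, or in mpeg1.1 cells. Cells were also thinned to 4000 UMIs each, and shallower cells were left out, here and below. Of the dct cells, 52 of 139 in DMSO and 38 of 94 in CVT-10216 were left out in this way. Kita was then detected in 19.5% of 87 dct cells (Clopper-Pearson interval 11.8 to 29.4) and 21.4% of 56 (11.6 to 34.4). Without thinning it was detected in 28.1% and 28.7% of all dct cells. Unthinned shares cover all cells of a class, so they differ from thinned shares in cells as well as in depth. In thinned mpeg1.1 cells, which served as background, it was detected in 0 of 74 and 0 of 110, with Clopper-Pearson upper limits of 4.86% and 3.30%. The median depths before thinning, over all cells of the class, were 5144 and 5044 UMIs in dct cells and 9959 and 12191 UMIs in mpeg1.1 cells.

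A large part of the kita UMIs lay in cells between the gates. Double gated cells held 43.5% of the kita UMIs of the DMSO library (87 of 200) and 45.1% of those of CVT-10216 (101 of 224), in 4.65% and 6.06% of all UMIs. Of these, 86 and 90 were in cells with dct and gch2 together, which had 62.2 CPM of kita in DMSO and 57.3 CPM in CVT-10216 but 1.45 and 0.637 CPM of csf1ra. Within gch2 cells, too, kita followed dct. It was at 3.33 CPM in the 700 DMSO gch2 cells with no dct UMI and at 56.6 CPM (20.8 to 123) in the 14 with at least 2. In CVT-10216 it was at 1.64 CPM in 1649 and at 27.2 CPM (13.02 to 49.9) in 30 such cells. Median depth went from 4964.5 to 5611.5 UMIs with dct in DMSO and from 5424 to 11244 UMIs in CVT-10216. Double gated cells with dct and gch2 had medians of 7194 and 9823 UMIs. The part of depth was not tested.

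**Figure D1:**
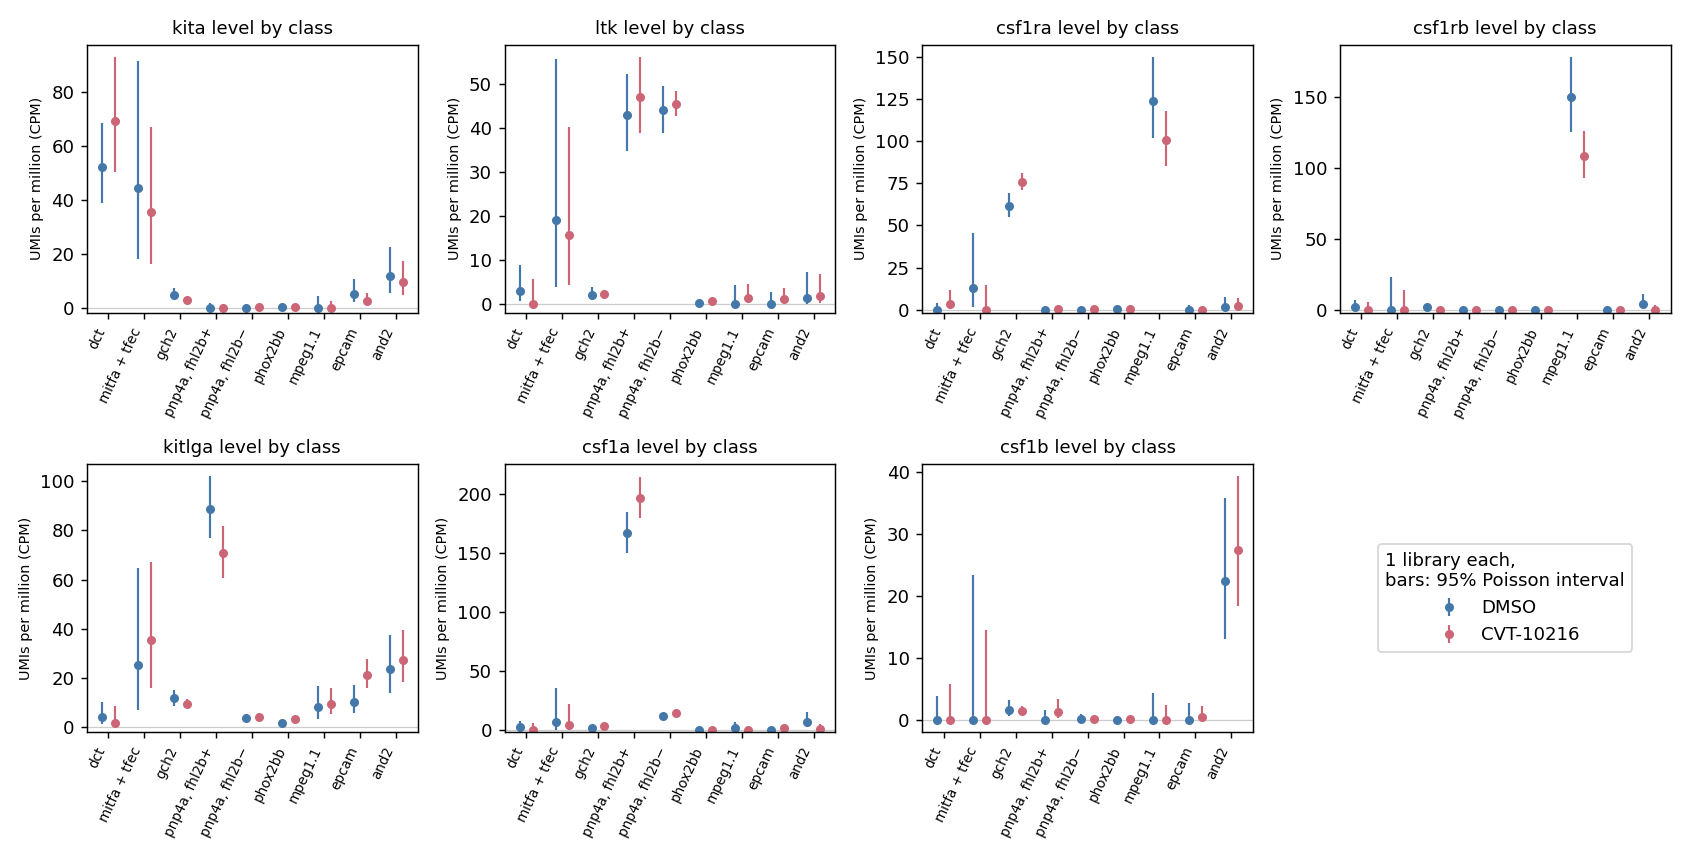
Level of each receptor (kita, ltk, csf1ra, csf1rb) and ligand (kitlga, csf1a, csf1b) in CPM (y axis) in the 9 gated classes (x axis), with DMSO in blue and CVT-10216 in red. Points are summed UMIs of 1 library and bars are 95% exact Poisson intervals, with csf1a at 167 and 197 CPM in pnp4a cells with fhl2b and csf1rb at 150 and 109 CPM in mpeg1.1 cells.

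The kita ligand kitlga was highest in another pigment class, the pnp4a cells with fhl2b. It stood at 88.7 CPM (76.9 to 102, 201 UMIs) there in DMSO and at 70.7 CPM (60.7 to 81.7, 181 UMIs) in CVT-10216, the class in which kita was at 0. The pnp4a cells without fhl2b had 3.71 and 4.16 CPM, which makes the level with fhl2b 23.9-fold (15.5 to 38.6) and 17.0-fold (13.2 to 22.0) higher. Kitlga was more widespread than the other ligands. It was measured at 25.3 and 35.3 CPM in mitfa with tfec cells (4 and 9 UMIs), at 23.7 and 27.4 CPM in and2 cells, at 10.3 and 21.2 CPM in epcam cells and at 11.7 and 9.63 CPM in gch2 cells. The mpeg1.1 cells, its background, were at 8.12 CPM (3.27 to 16.7) and 9.63 CPM (5.39 to 15.9). In DMSO the intervals of mitfa with tfec, and2, epcam and gch2 cells all overlapped this background. In CVT-10216 those of epcam and gch2 cells did. In CVT-10216 the interval of mitfa with tfec cells (16.1 to 66.9) overlapped that of pnp4a cells with fhl2b, and below them mitfa with tfec, and2 and epcam cells were not separated. Ungated cells with col1a2, a fibrillar collagen gene, had 38.3 CPM (25.7 to 55.1) and 31.0 CPM (23.5 to 40.2). In thinned cells kitlga was detected in 31.2% of pnp4a cells with fhl2b in DMSO (23.7 to 39.5) and 22.7% in CVT-10216 (16.1 to 30.5), and in 4.05% and 2.73% of mpeg1.1 cells (unthinned 66.2% and 66.9%, against 8.54% and 9.32%). The share over all pnp4a cells without fhl2b, 1.64% and 1.28%, was no higher than in mpeg1.1 cells.

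The other Kit ligand, kitlgb, had a different place. Its level was 54.2 CPM (51.7 to 56.8) in phox2bb cells of DMSO and 55.9 CPM (53.0 to 58.8) in those of CVT-10216, and 35.8 and 37.7 CPM in ungated cells with the glial gene fabp7a. In phox2bb cells kitlga was at 1.58 and 3.26 CPM only. Kitb, the paralog of kita, gave 17 UMIs over all 9 classes and was not compared.

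Ltk was at like levels in both kinds of pnp4a cell. With fhl2b its level was 42.8 CPM (34.7 to 52.2) in DMSO and 46.8 CPM (38.8 to 56.0) in CVT-10216, and without fhl2b it was 43.9 CPM (38.9 to 49.5) and 45.5 CPM (42.7 to 48.3). The ratio of the level with fhl2b to that without was 0.975 (0.765 to 1.23) in DMSO and 1.03 (0.846 to 1.25) in CVT-10216, and in thinned cells 0.750 (0.448 to 1.21) and 1.22 (0.820 to 1.77). In these sums ltk thus did not rise with fhl2b as kitlga and csf1a did. Its ratio between the classes depended on the scaling. With TMM scaling, an alternative named below, ltk was higher without fhl2b in both libraries. The TMM factors, which divide the level, were 0.788 without and 0.908 with fhl2b in DMSO, and 0.728 and 0.945 in CVT-10216. An order between these classes was not settled. In the pnp4a cells with exactly 1 fhl2b UMI, ltk was at 28.4 CPM (12.3 to 56.0, 8 UMIs) in DMSO and 91.2 CPM (68.7 to 119, 55 UMIs) in CVT-10216. The mitfa with tfec cells held 3 and 4 ltk UMIs, or 19.0 CPM (3.92 to 55.5) and 15.7 CPM (4.27 to 40.1). Every other class was at 3.05 CPM or below. In thinned cells ltk was detected in 12.1% and 17.0% of pnp4a cells with fhl2b and in 17.5% and 16.7% of those without (unthinned 42.8%, 49.3%, 39.0% and 43.0%), against 0 of 74 and 0 of 110 mpeg1.1 cells.

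Few UMIs came from the known ligands of Ltk. Alkal1 and alkal2a had 5 UMIs each over the 9 classes and were not compared. Alkal2b was found in ungated cells with col1a2, at 33.1 CPM (21.4 to 48.8) in DMSO and 63.6 CPM (52.6 to 76.3) in CVT-10216, though all ungated alkal2b UMIs came from 6 and 16 cells, and in dct cells at 16.3 and 4.71 CPM, the latter from 3 UMIs. In and2 cells it was at 52.6 CPM in DMSO and 0 in CVT-10216, but its 40 DMSO UMIs were all in 1 cell. Alk, the receptor related to Ltk, was highest in phox2bb cells, with 16.3 CPM (15.0 to 17.8) and 30.3 CPM (28.2 to 32.5). In DMSO this was 1.38-fold the level of and2 cells, at 11.8 CPM from 9 UMIs, and the intervals overlapped. In CVT-10216 the next class was at 2.34 CPM. Ltk itself was at 0.182 and 0.660 CPM in phox2bb cells.

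**Figure D2:**
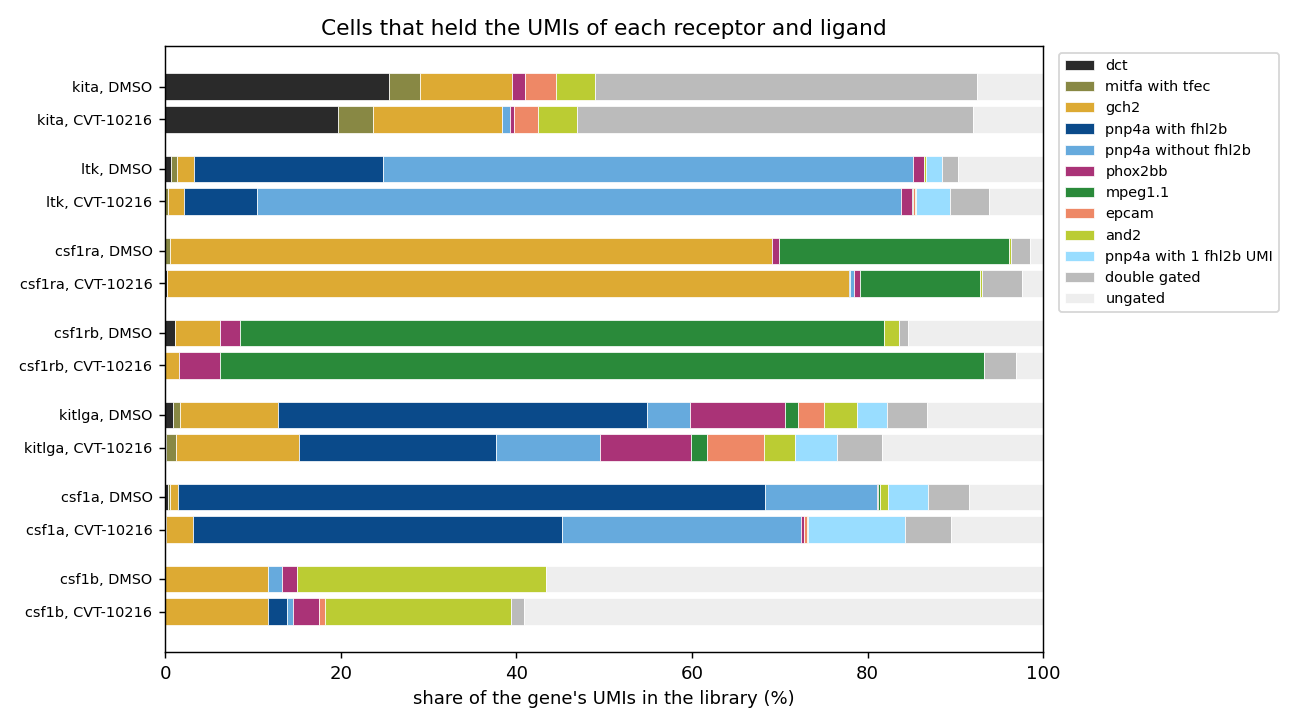
Share of each gene's UMIs in a library (x axis, in percent) by the class of the cell that held them (colours), for the 7 genes in DMSO and CVT-10216 (rows). Double gated cells held 43.5% and 45.1% of the kita UMIs, gch2 cells 68.6% and 77.7% of the csf1ra UMIs, and ungated cells 56.7% and 59.1% of the csf1b UMIs.

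The Csf1 receptors were divided between pigment cells and macrophages. Csf1ra was measured in both, at 124 CPM (102 to 150) and 101 CPM (85.7 to 118) in mpeg1.1 cells and at 61.8 CPM (54.8 to 69.5) and 75.8 CPM (70.9 to 80.9) in gch2 cells. The mpeg1.1 level was 2.01-fold (1.59 to 2.52) that of gch2 cells in DMSO and 1.33-fold (1.12 to 1.58) in CVT-10216. Because gch2 cells were many, they held 68.6% of the csf1ra UMIs in DMSO and 77.7% in CVT-10216, and mpeg1.1 cells 26.2% and 13.7%. Csf1rb was at 150 CPM (125 to 178) and 109 CPM (92.8 to 126) in mpeg1.1 cells but at 1.99 and 0.256 CPM (9 and 3 UMIs) in gch2 cells. Of the UMIs of both receptors, csf1rb gave 54.7% (48.1 to 61.1) and 51.8% (46.3 to 57.4) in mpeg1.1 cells and 3.11% (1.43 to 5.83) and 0.336% (0.0694 to 0.980) in gch2 cells. The csf1ra UMIs of gch2 cells were therefore not accompanied by csf1rb in the ratio seen in mpeg1.1 cells. The summed level of 11 macrophage markers other than the gate gene was 182 and 135 CPM in gch2 cells against 9263 and 9030 CPM in mpeg1.1 cells. Of these markers, cd74a was at 0 in mpeg1.1 cells of both libraries and in gch2 cells of DMSO, but not in gch2 cells of CVT-10216.

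In thinned gch2 cells csf1ra was detected in 19.2% of 496 cells in DMSO (15.8 to 22.9) and 25.3% of 1211 in CVT-10216 (22.8 to 27.8). Without thinning it was detected in 26.5% of all 747 and 32.5% of all 1734 gch2 cells, of which 251 and 523 were too shallow to be thinned. The phox2bb cells, taken as background, gave 0 of 1346, with an upper limit of 0.274%, and 0.202% of 991. Csf1ra was present in gch2 cells with and without mitfa. In DMSO its level was 51.1 CPM in gch2 cells with no mitfa UMI, 60.5 CPM with 1 and 68.5 CPM with at least 2, and all 3 intervals overlapped. In CVT-10216 it was 53.2 CPM (44.6 to 63.0), 77.1 CPM (65.2 to 90.5) and 83.3 CPM (76.8 to 90.2). The median depth moved with mitfa, from 4127 to 6555 UMIs in DMSO and from 4197 to 6993 UMIs in CVT-10216, and its part in these levels was not tested. In dct cells csf1ra had 0 UMIs in DMSO and 2 UMIs in CVT-10216, so that the level in gch2 cells was at least 16.3-fold higher in DMSO (lower exact limit) and 24.1-fold higher (6.66 to 199) in CVT-10216.

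Kita and csf1ra were seldom found in the same cell. Of the cells with at least 2 mitfa UMIs and more dct than gch2, 187 in DMSO and 163 in CVT-10216, kita was detected in 58 and 57 and csf1ra in 0 and 3. Of those with more gch2 than dct, 366 and 991, csf1ra was detected in 107 and 381 and kita in 35 and 34. Over all cells with at least 2 mitfa UMIs the counts were 94 cells with kita alone, 105 with csf1ra alone and 2 with both in DMSO, and 88, 376 and 8 in CVT-10216, where the product of the shares gives 17.96 and 31.1 cells with both. That product pools cells with more dct and cells with more gch2. Of the cells with more gch2 than dct, 2 and 8 held both, and the product gives 10.2 and 13.1. Of those with more dct than gch2, 0 and 0 held both, against 0 and 1.05. Within thinned gch2 cells, where kita was rare, 0 of 496 and 2 of 1211 held both. The product gives 1.15 and 1.26 there, so that no shortfall was detectable. In thinned double gated cells it was 0 of 175 and 0 of 260, against 0.274 and 0.538.

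Csf1a, like kitlga, was highest in pnp4a cells with fhl2b. Its level there was 167 CPM (150 to 185, 378 UMIs) in DMSO and 197 CPM (180 to 215, 505 UMIs) in CVT-10216. Among the 7 genes and 9 classes this was the highest value of each library. In DMSO its interval overlapped that of csf1rb in mpeg1.1 cells (125 to 178). There csf1rb was the higher after thinning (155 against 149 CPM) and with cells weighted equally (198 against 167 CPM). The pnp4a cells without fhl2b had csf1a at 11.6 CPM (9.10 to 14.6) and 14.2 CPM (12.7 to 15.8), a difference of 14.4-fold (11.1 to 18.7) and 13.9-fold (12.1 to 16.04). In thinned cells csf1a was detected in 39.7% (31.6 to 48.3) and 48.2% (39.7 to 56.8) of pnp4a cells with fhl2b, in 2.80% and 3.64% of those without, and in 0 of 1346 and 0 of 991 phox2bb cells (unthinned 74.5%, 88.0%, 5.15% and 5.83% for the pnp4a cells). Csf1ra was at 0 and 0.390 CPM in the pnp4a cells with fhl2b.

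Both ligands were then followed over fhl2b in thinned pnp4a cells. The fhl2b UMIs were counted after thinning, so the group with 0 includes cells that had fhl2b before it. That group held 464 DMSO and 1540 CVT-10216 cells, with 38 and 145 csf1a UMIs. The thinned cells with no fhl2b UMI before thinning were 428 and 1482, with 19 and 92 csf1a UMIs. With 0, 1, 2 to 3 and 4 or more fhl2b UMIs, csf1a was at 20.5, 93.0, 150 and 207 CPM in DMSO and at 23.5, 172, 200 and 206 CPM in CVT-10216. The step from 0 to 1 fhl2b UMI was larger than the intervals in both libraries, while the steps after it were not. Kitlga was at 9.16, 81.4, 117 and 152 CPM in DMSO and at 6.98, 63.7, 61.1 and 44.1 CPM in CVT-10216, the last from 3 UMIs in 17 cells. Its levels beyond 0 fhl2b UMIs overlapped within each library. Ltk was at 51.2, 29.1, 20.8 and 65.2 CPM in DMSO and at 47.9, 58.8, 38.9 and 103 CPM in CVT-10216, with no order over the steps.

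**Figure D3:**
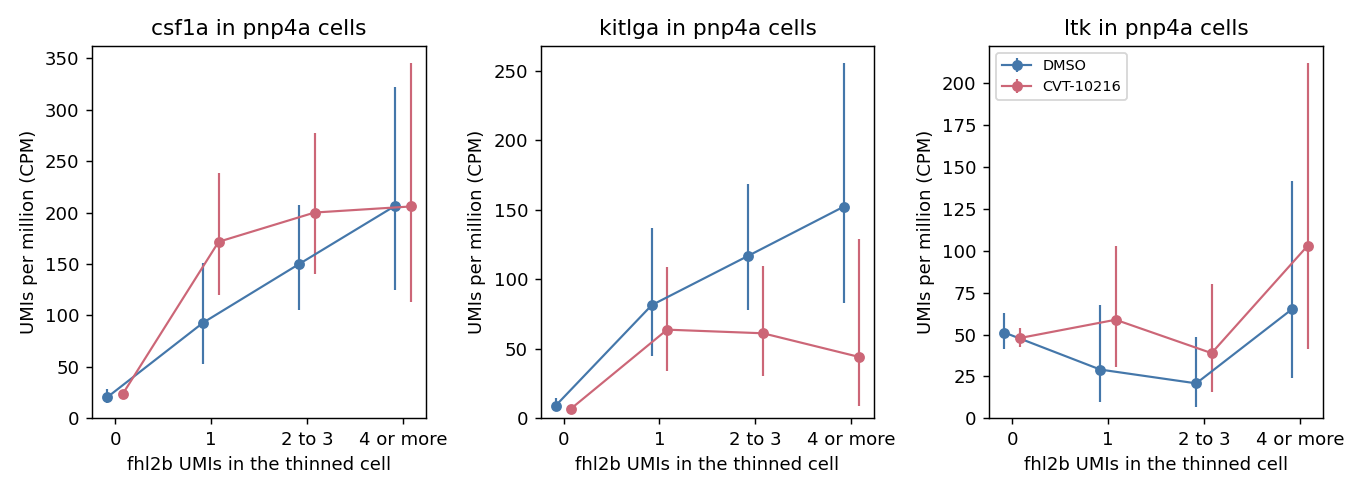
Levels of csf1a, kitlga and ltk in CPM (y axis) in pnp4a cells thinned to 4000 UMIs and grouped by their fhl2b UMIs (x axis), with DMSO in blue and CVT-10216 in red. Points are the summed UMIs of 1 library with 95% exact Poisson intervals. Csf1a was at 20.5 and 23.5 CPM without fhl2b and at 93.0 to 207 CPM with it, whereas ltk had no order.

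The pnp4a cells with fhl2b held 66.9% of the csf1a UMIs of DMSO (378 of 565) and 42.0% of those of CVT-10216 (505 of 1201), and the more numerous pnp4a cells without fhl2b 12.7% and 27.2%. Of the latter cells, 25 of 485 in DMSO and 90 of 1544 in CVT-10216 held csf1a. In a comparison chosen after these values were seen, kitlga was at 46.3 CPM (27.5 to 73.2) and 47.2 CPM (37.0 to 59.2) in those cells, and at 0.862 and 1.02 CPM in the remaining 460 and 1454 cells. Fhl3a, a further LIM domain gene, was at 260 and 365 CPM with csf1a and at 22.9 and 10.7 CPM without, and fhl2a at 118 and 124 CPM with csf1a and at 9.30 and 0.558 CPM without. Ltk was at 51.5 CPM (31.5 to 79.5) and 57.4 CPM (46.1 to 70.5) with csf1a and at 43.4 CPM (38.2 to 49.1) and 44.6 CPM (41.8 to 47.5) without. The cells with csf1a were deeper, with medians of 15720 and 16045 UMIs against 13287 and 14815 UMIs, and the part of depth was not tested. After thinning, csf1a and kitlga were detected together in 4 of 428 such cells in DMSO and 8 of 1482 in CVT-10216, where the product of their shares gives 0.196 and 0.692 cells. Among pnp4a cells with fhl2b, 13 and 15 of 141 thinned cells held both, and the product gives 17.5 and 15.4.

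Csf1b, the other Csf1 ligand, was rare and lay mostly outside the pigment classes. Its level in and2 cells was 22.4 CPM (13.02 to 35.8, 17 UMIs) in DMSO and 27.4 CPM (18.3 to 39.3, 29 UMIs) in CVT-10216. These levels moved with the choice of cells, to 41.5 and 52.5 CPM with every cell of 2 or more gates set apart and to 47.2 and 50 CPM after thinning. Ungated cells with col1a2 had 43.6 CPM (30.0 to 61.3) and 25.6 CPM (18.8 to 34.0) and held 55.0% and 34.3% of all csf1b UMIs. Among the 9 classes the next level was that of gch2 cells, at 1.55 and 1.36 CPM, and all 7 gch2 UMIs of DMSO were in 1 cell. The gch2 cells held 11.7% of the csf1b UMIs in each library, 7 of 60 in DMSO and 16 of 137 in CVT-10216. The and2 cells were also divided by epcam, again after the values were seen. Csf1b was at 41.6 CPM (24.2 to 66.6) and 56.9 CPM (37.5 to 82.8) in and2 cells with no epcam UMI, and at 0 (0 to 10.6) and 3.42 CPM (0.414 to 12.4) in those with at least 2. Kita showed the opposite, with 0 UMIs in 40 and 55 and2 cells with no epcam, and 25.9 CPM (11.8 to 49.1) and 17.1 CPM (8.20 to 31.4) in 17 and 32 cells with it. Its 9 DMSO UMIs were in 3 cells, 5 of them in 1 cell, and its 10 CVT-10216 UMIs in 8 cells. Kitlga was at 31.8 CPM (16.9 to 54.4) and 50.6 CPM (32.4 to 75.3) without epcam and at 11.5 CPM (3.13 to 29.4) and 8.55 CPM (2.78 to 19.95) with it.

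Il34, a further ligand of the Csf1 receptors, was highest in dct cells, at 9.16 CPM (4.19 to 17.4) and 15.7 CPM (7.53 to 28.9) from 9 and 10 UMIs. In CVT-10216 the next class was and2 cells, at 7.55 CPM from 8 UMIs. In phox2bb cells, the next class in DMSO, il34 was at 4.03 and 3.96 CPM. The interval of dct cells overlapped that of the next class in both libraries, so dct cells were not separated from it. The more numerous phox2bb cells held 81.1% and 56.4% of the il34 UMIs, and dct cells 5.49% and 5.52%.

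A gene was called restricted when 1 class had its highest level in both libraries and at least 4-fold that of the next class. This held for 3 of the 7 genes, while 7.44% of 16392 genes with at least 50 UMIs met it. Csf1rb was restricted to mpeg1.1 cells, as were 2.17% of all genes. Csf1a was restricted to pnp4a cells with fhl2b (0.183% of all genes), and csf1b to and2 cells (0.982%). The call covers the 9 classes alone. Outside them, ungated cells with col1a2 held csf1b at 43.6 and 25.6 CPM, beside 22.4 and 27.4 CPM in and2 cells with overlapping intervals, and pnp4a cells with 1 fhl2b UMI held csf1a at 92.4 and 221 CPM. Csf1a was also at 17.2 CPM (9.15 to 29.4) and 37.0 CPM (28.7 to 46.9) in ungated cells with col1a2. Kita, kitlga, ltk and csf1ra each had a neighbouring class within 4-fold. None of the 4 further receptors and ligands with enough UMIs (kitlgb, il34, alk and alkal2b) was restricted. Of 38 genes of signalling downstream of receptor tyrosine kinases, 5 were. The phosphatases ptpn6 and inpp5d, the kinase lyn and the PI3-kinase subunit pik3cd were restricted to mpeg1.1 cells, with ptpn6 at 715 and 642 CPM, and spred3, a Ras pathway inhibitor, to phox2bb cells. No gene of this list was restricted to a pigment class. Of all genes, 0.22% were restricted to dct cells, 0.0488% to mitfa with tfec cells and 0.329% to gch2 cells. For pnp4a cells the shares were 0.183% with fhl2b and 0.531% without. With shares this low, the lack of such a gene among 38 is not a result about the list.

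The genes whose level over the 18 sums of class and library was most like that of each receptor or ligand were found among 14674 genes, by Pearson's r of log2(CPM + 1). The sums share libraries and depth, and the values are given as a description. Nearest to csf1rb were spi1b (r = 0.99), the macrophage transcription factor PU.1, wasa (0.99) and cmklr1 (0.99). Nearest to ltk were CR318624.2 (0.98) and the homeobox genes alx4b (0.96) and alx4a (0.96). Among the 3 nearest to csf1ra were slc38a6 (0.92) and cndp2 (0.86). Nearest to kita were cdc42ep3 (0.92), tfap2c (0.91) and magi3b (0.91). Nearest to csf1a were akap12a (0.94), si:ch211-38m6.6 (0.94) and si:dkey-197i20.6 (0.92). Kitlga had the loosest neighbours, snx10a (0.84), efemp2a (0.77) and the LIM domain gene fhl3a (0.74). Csf1b had too few UMIs (80) for this.

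The inhibitor was compared with the vehicle within each class. With at least 20 UMIs over both libraries, 21 pairs of gene and class of the 9 could be compared. In none of them was the level 2-fold lower in CVT-10216. In 4 it was at least 2-fold higher, as in 6.52% of all 82039 gene and class pairs. Of all pairs 9.07% were 2-fold apart either way, so that lower pairs were the rarer kind over all genes as well. The 4 higher pairs were kitlga in phox2bb cells (1.58 against 3.26 CPM) and in epcam cells (10.3 against 21.2 CPM), ltk in phox2bb cells (0.182 against 0.660 CPM) and csf1a in gch2 cells (1.104 against 3.15 CPM). The same call was met by 11.2% of all genes in phox2bb cells, 7.39% in epcam cells and 5.9% in gch2 cells. None of these was a class in which the gene was highest, and the median log2 ratio of all genes in phox2bb cells was itself 0.16. The phox2bb cells also differed in their markers between libraries, with the summed level of 8 enteric and autonomic markers at 4651 CPM in DMSO and 7332 CPM in CVT-10216, of 5 neuron markers at 1458 and 2735 CPM and of 5 glia markers at 290 and 576 CPM. In epcam cells 8 fin fold markers stood at 2384 and 3926 CPM. Muscle genes, 6 listed, summed to 35.0 and 219 CPM in phox2bb cells and to 176 and 674 CPM in gch2 cells, where red cell genes were at 20.7 and 155 CPM and fin fold markers at 147 and 296 CPM. The part of these shifts in the ratios was not tested. The interval of the log2 ratio excluded 0 in 8 of the 21 pairs and in 23.8% of all pairs, with 50.6% of all genes in phox2bb cells and 23.9% in epcam cells.

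In the classes of the 9 with the highest levels of each gene the ratios were below 2-fold. In pnp4a cells with fhl2b the log2 ratio of CVT-10216 over DMSO was −0.33 (−0.63 to −0.03) for kitlga and 0.24 (0.05 to 0.44) for csf1a, while the median of all genes there was 0.08. In gch2 cells csf1ra gave 0.29 (0.10 to 0.49), beside a median of 0.08 for all genes. In mpeg1.1 cells csf1rb gave −0.46 (−0.80 to −0.12) and csf1ra −0.30 (−0.66 to 0.07). Red cell genes, 4 of 4 listed, summed to 9.28 CPM in the DMSO and 2814 CPM in the CVT-10216 mpeg1.1 cells, and their part in these ratios was not tested. Ltk gave 0.05 (−0.14 to 0.25) in pnp4a cells without fhl2b and 0.13 (−0.27 to 0.53) in those with it, kita 0.41 (−0.20 to 1.02) in dct cells, and csf1b 0.29 (−0.62 to 1.25) in and2 cells. An interval that holds 0 does not show that the levels were alike. Some ratios were larger in cells outside the 9 classes. In double gated cells, which held the largest share of kita, it went from 31.7 to 19.3 CPM, a log2 ratio of −0.72 (−1.15 to −0.29), ltk from 2.92 to 12.05 CPM and csf1ra from 3.28 to 9.94 CPM, where the interval excluded 0 for 25.9% of all genes. The double gated cells differed in make-up, since those with dct and gch2 together, at 62.2 and 57.3 CPM of kita, were 142 of 211 in DMSO and 131 of 292 in CVT-10216, and those with gch2 and pnp4a 7 and 52. Their summed epithelial markers were at 2927 and 5649 CPM, their fin fold markers at 1219 and 2521 CPM and their red cell genes at 8.03 and 956 CPM. In pnp4a cells with 1 fhl2b UMI the log2 ratio was 1.68 (0.60 to 2.96) for ltk and 1.26 (0.64 to 1.92) for csf1a, where the interval excluded 0 for 17.4% of all genes. In ungated cells csf1rb went from 4.61 to 0.524 CPM, with 26 of its 27 DMSO UMIs in 5 cells. The interval excluded 0 for 16.4% of all genes in pnp4a cells with fhl2b, 18.2% in gch2 cells and 12.4% in mpeg1.1 cells.

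**Figure D4:**
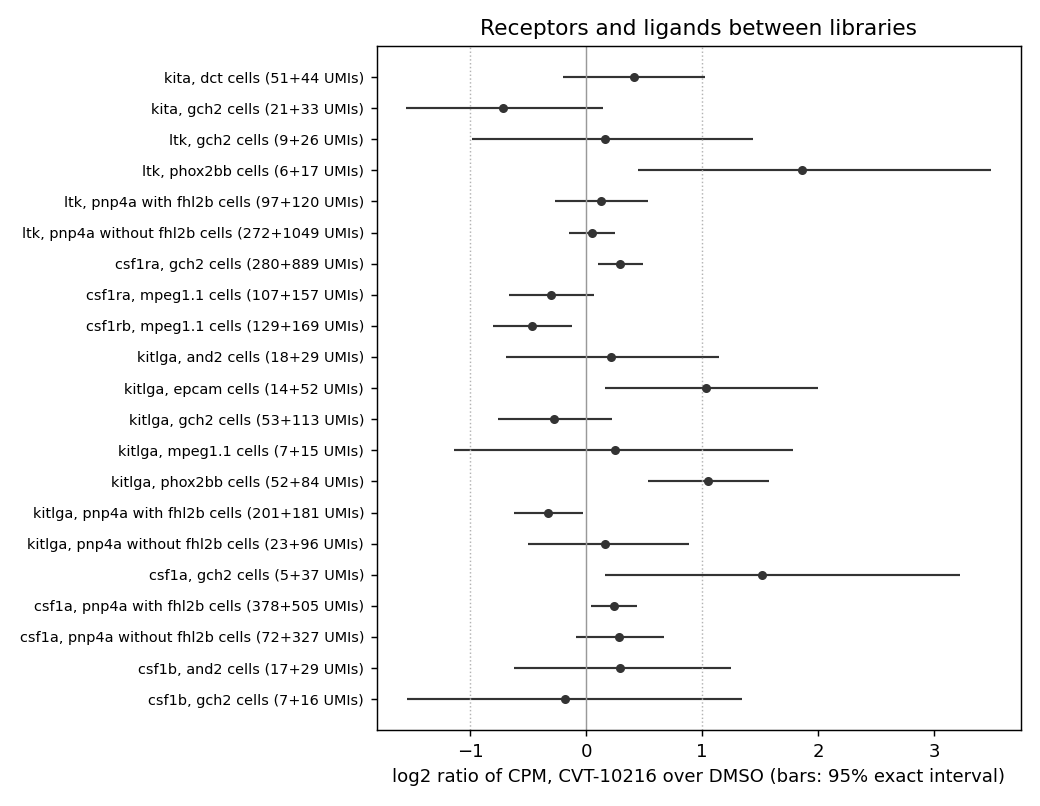
Log2 ratio of CPM in CVT-10216 over DMSO (x axis) for the 21 pairs of gene and class with at least 20 UMIs (rows, with the UMIs of DMSO and CVT-10216 in brackets). Points are the ratios of 1 library each, bars are 95% exact intervals and dotted lines mark 2-fold. The ratios past 2-fold are kitlga in phox2bb and epcam cells, ltk in phox2bb cells and csf1a in gch2 cells.

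Among the other receptors, ligands and signalling genes, 10 of 231 pairs were at least 2-fold apart between libraries, against 9.07% of all pairs. Kitlgb gave some of these pairs. It was at 5.17 and 17.5 CPM in epcam cells, from 7 and 43 UMIs, higher in CVT-10216. In and2 cells it was at 7.89 and 24.6 CPM, from 6 and 26 UMIs, again higher in CVT-10216. Of all genes, 7.39% in epcam cells and 5.24% in and2 cells were at least 2-fold higher. In gch2 cells kitlgb was at 2.21 and 0.938 CPM, from 10 and 11 UMIs, with an interval that held 0. There 1.06% of all genes were at least 2-fold lower.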

How the data were processed

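The authors deposited whole-number counts of UMIs per gene and barcode, not normalized, from 10x Genomics 3′ libraries, for all barcodes (25109 genes, 13360 barcodes) and for cells passing their filter. They used Cell Ranger 3.1.0 on GRCz11 with Ensembl annotation, and their processing notes also name version 2.1.1. Whether aggregation equalised depth is not given in the sources used here. The library of a cell was read from its barcode ending (1 DMSO, 2 CVT-10216), and 0 columns were left unmapped. A total of 11283 filtered cells were analysed, which held 58976443 UMIs in DMSO and 86348575 in CVT-10216.

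A cell passed a gate with at least 3 UMIs and 300 CPM of dct, gch2 or and2, with 5 and 500 of pnp4a, or with 2 and 150 of phox2bb, mpeg1.1 or epcam. A cell passing several went to the one whose level exceeded its limit most, if by 3-fold over the next, and was otherwise double gated. The mitfa with tfec class needed 2 UMIs and 150 CPM of mitfa, 1 of tfec and no gate. Pnp4a cells with fhl2b had at least 2 of its UMIs and those without had 0, and cells with 1 were kept apart. No doublet caller was run, and leaving out the 5% deepest cells was an alternative. Named genes were the 7 genes, gate genes, further ligands and receptors, restricted signalling genes and the 3 nearest in pattern, of which 1 is not reported here. The genes and lists were chosen with earlier results of these data known.

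Tables were summed in Python 3.11.15 (scipy 1.17.1, pandas 2.3.3, numpy 2.4.6), and edgeR 4.0.16 in R 4.3.3 gave TMM factors for one alternative. Intervals were exact Poisson, Clopper-Pearson or conditional binomial at 95%. A class at 0 was taken at 3 UMIs. Calculations were tested on simulated data. Alternatives changed gates, cells, depth, scaling and limits.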

Additional observations from a re-analysis of the deposited data

Results flagged for a closer look

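Kitlga differed between classes in the direction of its ratio between libraries. Its log2 ratio of CVT-10216 over DMSO was −0.33 in pnp4a cells with fhl2b, 1.05 in phox2bb cells and 1.03 in epcam cells, each with an interval that excluded 0. The difference between the classes was not tested, since each condition had 1 library. In phox2bb cells 11.2% of all genes were at least 2-fold higher in CVT-10216. The kitlga levels there, 1.58 and 3.26 CPM, were below those of mpeg1.1 cells, its background, at 8.12 and 9.63 CPM. With TMM scaling, with cells weighted equally and without the 5% deepest cells, among other alternatives, kitlga in phox2bb cells was not among the pairs at least 2-fold apart.

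Barcodes outside the filtered table, 906 in DMSO and 1171 in CVT-10216 with medians of 851 and 839 UMIs, also held transcripts of these genes above the level of 3 UMIs, 2.18 and 1.68 CPM. Csf1ra was the highest, at 27.6 CPM in DMSO and 29.7 CPM in CVT-10216. Kitlga was at 17.4 and 9.53 CPM, ltk at 9.44 and 7.28 CPM and csf1a at 7.99 and 3.36 CPM. Kita was at 2.24 CPM and csf1rb at 2.80 CPM in CVT-10216. For these sums the barcodes were not gated, so the cells or free RNA they came from were not told apart. They were gated only in the alternative with all barcodes, together with the filtered cells.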

How the results depend on the processing

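No paired analysis was possible because each condition had 1 library, and for the same reason no library could be left out. The count of restricted genes was 3 under all but 3 of 16 alternatives, with 2 after thinning to 4000 UMIs (5.97% of all genes), 2 with a minimum of 200 UMIs (6.15%) and 4 with a 2-fold limit (15.8%), against 7.44% as reported. Csf1b was the gene no longer called after thinning and at the minimum of 200 UMIs, where its 80 UMIs were too few. The minimum of 50 UMIs also applied to the smaller thinned sums. The 4 pairs at least 2-fold higher in CVT-10216 became 2 without the 5% deepest cells (kitlga in epcam cells and csf1a in gch2 cells) and 1 after thinning (csf1a in gch2 cells, of 14 pairs left). Under the other alternatives 3 or 4 pairs were higher, but not always the same pairs. With a gch2 limit of 3000 CPM they included csf1ra in pnp4a cells without fhl2b and in phox2bb cells. With cells put in the gate of the largest ratio, kita and ltk in gch2 cells and csf1a in phox2bb cells were newly 2-fold apart. In 1 pair the level was lower with cells put in the gate of the largest ratio, with cells weighted equally and at a 1.5-fold limit, in the last case kita in gch2 cells (4.64 and 2.81 CPM). Each of the 4 pairs fell below 2-fold or was no longer compared under at least 1 alternative, csf1a in gch2 cells with the largest ratio and with a gch2 limit of 3000 CPM. The log2 ratio of ltk in pnp4a cells without fhl2b, 0.05, became −0.16 after thinning and −0.19 with cells weighted equally, and the cause was not tested. The class with the highest level was kept in 12 to 14 of 14 cases. The changes were of ltk, between the pnp4a classes, and of kita. After thinning, kita was highest in mitfa with tfec cells in both libraries. In DMSO the same held with every cell of 2 or more gates set apart and with a gch2 limit of 3000 CPM. Of 168 levels, 17 moved beyond their intervals, such as kita in dct cells of DMSO, at 36.0 CPM with every cell of 2 or more gates set apart, and csf1b in and2 cells, at 47.2 and 50 CPM after thinning. A limit of 3000 CPM for gch2 and the use of cells of at least 4000 UMIs without thinning were chosen after the data were seen, and with the former kita was at 59.0 and 61.1 CPM in 282 and 223 dct cells. Depth limits the mitfa with tfec cells most, where 3 UMIs are 19.0 and 11.8 CPM.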

Other observations

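In ungated cells csf1rb had 27 UMIs in DMSO, and 26 of them were in 5 cells that met none of the further gates. These cells held spi1b at 213 CPM and lcp1 at 379 CPM, both macrophage and leukocyte genes, but 1 UMI of mpeg1.1. The 4 such cells of CVT-10216 held 5 csf1rb UMIs, with lcp1 at 666 CPM. The cells were picked by csf1rb after its values were seen.

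Of the signalling genes, etv4 and etv5b, transcription factors that follow receptor tyrosine kinase signalling, were higher in CVT-10216 in mitfa with tfec cells. Etv4 had 1 UMI in 20 DMSO cells and 19 UMIs in 24 CVT-10216 cells, and etv5b 31.7 and 86.2 CPM from 5 and 22 UMIs, where 10.4% of all genes were at least 2-fold higher. Their log2 ratios were 3.55 (0.90 to 8.93) and 1.44 (0.008 to 3.20). The interval excluded 0 for 17.6% of all genes in this class. In dct, gch2 and both kinds of pnp4a cells etv4 was at 0.724-fold to 1.53-fold and etv5b at 0.803-fold to 0.943-fold. All those intervals held 0. The other signalling genes with enough UMIs in this class were lower in CVT-10216, each with an interval that held 0. Spry4 was at 0.672-fold, ptpn11a at 0.866-fold, grb2b at 0.884-fold and gab1 at 0.904-fold. Etv4 and etv5b were picked from the list after their values were seen. The make-up of the mitfa with tfec cells also differed between libraries. Summed iridophore markers were at 1020 CPM in DMSO and 1752 CPM in CVT-10216, and xanthophore markers at 279 and 219 CPM. The part of this in the ratios was not tested.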
